A study of Mus musculus with 4 samples.

Results

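Protocadherins are cell surface adhesion proteins of the cadherin superfamily, and the members described here are the entries of the count table whose symbol begins with Pcdh. There were 36 such entries among 25965, of which 24 belonged to the clustered families alpha, beta and gamma on chromosome 18 and 12 were non-clustered genes spread over chromosomes 3, 5, 10, 14, 18 and X. Of these, 34 had enough reads to be tested on total counts. The other two, Pcdhb1 and the endothelial protocadherin Pcdh12, did not. Pcdhb1 had 1 and 8 counts in the controls and 9 and 7 after deletion, and Pcdh12 had 1 and 0 against 7 and 0. Here and below, the first value of a pair is that of line A and the second that of line B.

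The libraries came from 2 lines of female mouse neural stem cells, written here as A and B, derived from E14.5 embryos of a mixed C57BL/6, 129 and Castaneus background. All cells carried 1 deleted and 1 floxed Smchd1 allele at the outset, and a 129 X with the Xist deltaA allele opposite a Castaneus X with wild-type Xist. The deleted group (Smchd1 del/del, 2 libraries) had been transduced with the MSCV-Cre-puro retrovirus, placed under puromycin after 24 h and harvested at 7 days, whereas the control group (Smchd1 del/fl, 2 libraries) was left untransduced. Deletion, viral transduction and drug selection therefore cannot be told apart. The controls already lacked 1 Smchd1 allele, so the comparison is between reduced and lost Smchd1 and not with wild-type cells.

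In the clustered families, each gene of the alpha and gamma clusters contributes a variable first exon that is spliced to constant exons shared by its cluster, while each beta gene is a single exon. A neuron uses a limited choice of these promoters, through CTCF, cohesin, distal enhancers and DNA methylation, and the resulting combination of isoforms underlies self-avoidance of its branches. Non-clustered protocadherins of the delta1 and delta2 families have promoters of their own and act in axon growth, synapse formation and cell sorting. Smchd1 is a chromatin protein known for silencing on the inactive X, at imprinted genes and at the clustered protocadherins.

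The libraries held 29873400 to 34018500 counts, and Smchd1 fell from 2779 and 3461 counts in the controls to 785 and 852, a log2 fold change of -1.96 (SE 0.07, adjusted p = 0.0194 by the edgeR quasi-likelihood test with line as a block and Benjamini-Hochberg adjustment; 0.341 without the block). Xist had 53514 and 75662 counts in the controls and 72142 and 85511 after deletion. The neural stem cell markers all had enough reads to be tested. Their summed level was 9733 and 8676 CPM (counts scaled to the size of the library) in the controls against 8736 and 7506 after deletion. Of these 13 markers 5 were above 0 on the log2 scale. Of 9 astrocyte markers 6 rose and 0 fell by edgeR with the block (all genes, 3.71% higher and 1.89% lower). The astrocyte markers summed to 1767 and 1955 CPM in the controls against 3397 and 3521 after deletion. Some of these astrocyte markers are also made by neural stem cells. Interferon-stimulated genes summed to 127 and 94.8 CPM in the controls and to 571 and 114 after deletion, a shift of line A above all, and 1 of the 16 tested, Ifi44, rose. Neuron markers summed to 186 and 125 CPM in the controls and to 84.6 and 118 after deletion, with 5 of 9 above 0 on the log2 scale. Among them Syt1 fell, from 170.4 and 72.0 CPM to 61.4 and 25.9 (adjusted p = 0.0194 by edgeR with the block), while Gad1 had 2.15 and 39.1 CPM against 8.66 and 75.7. Oligodendrocyte markers summed to 141 and 172 against 177 and 219, microglia markers to 10.4 and 11.2 against 11.3 and 10.8, and mesenchyme markers to 27.2 and 15.6 against 10.4 and 24.1. Tmem119 and Cx3cr1 of the microglia markers and Dcn and Lum of the mesenchyme markers had 0 counts in all libraries. Other markers of these lists had reads. Csf1r of microglia had 260 and 304 counts in the controls against 287 and 251 after deletion, and P2ry12 had 48 and 76 against 83 and 96. Acta2 of mesenchyme had 750 and 469 counts against 282 and 709, and Col1a1 had 37 and 54 against 46 and 49. The part of these shifts in the protocadherin results below was not tested.

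The promoter sequences of the non-clustered genes are shown for the 3 members that rose, as described further on, and have an entry in the RefSeq promoter table (GRCm38.p6), together with Pcdh18, which had the lowest log2 fold change of the 34 tested members. Each is the 250 bases before the start, read 5′ to 3′ on the strand of the gene. Pcdh17 lies at chr14:84443313-84443562 on the plus strand, Pcdh10 at chr3:45378148-45378397 on the plus strand, Pcdh19 at chrX:133688994-133689243 on the minus strand and Pcdh18 at chr3:49757317-49757566 on the minus strand. Capitals mark the letters CGCT on either strand, the core of the conserved element that most clustered protocadherin promoters share.
Pcdh17: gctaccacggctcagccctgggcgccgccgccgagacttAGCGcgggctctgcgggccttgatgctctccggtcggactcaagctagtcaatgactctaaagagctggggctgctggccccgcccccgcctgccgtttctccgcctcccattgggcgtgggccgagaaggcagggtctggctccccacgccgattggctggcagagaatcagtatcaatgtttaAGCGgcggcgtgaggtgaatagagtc
Pcdh10: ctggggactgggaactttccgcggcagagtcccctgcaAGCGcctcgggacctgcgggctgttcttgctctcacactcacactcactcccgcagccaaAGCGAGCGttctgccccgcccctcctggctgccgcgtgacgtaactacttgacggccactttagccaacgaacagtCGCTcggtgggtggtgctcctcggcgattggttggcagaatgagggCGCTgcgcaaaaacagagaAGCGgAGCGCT
Pcdh19: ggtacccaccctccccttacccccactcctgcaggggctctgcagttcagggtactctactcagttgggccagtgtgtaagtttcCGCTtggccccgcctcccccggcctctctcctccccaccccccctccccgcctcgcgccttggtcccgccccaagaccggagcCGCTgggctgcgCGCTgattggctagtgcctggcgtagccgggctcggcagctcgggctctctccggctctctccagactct
Pcdh18: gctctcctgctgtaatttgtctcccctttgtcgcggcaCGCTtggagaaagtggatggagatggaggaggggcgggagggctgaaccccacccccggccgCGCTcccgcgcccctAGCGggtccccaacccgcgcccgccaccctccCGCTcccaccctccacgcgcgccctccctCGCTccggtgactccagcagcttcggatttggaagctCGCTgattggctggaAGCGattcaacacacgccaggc

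The letters CGCT occurred 2 times in the window of Pcdh17, 8 times in that of Pcdh10, 3 times in that of Pcdh19 and 7 times in that of Pcdh18, with matches on both strands counted and overlaps allowed. They are common letters, held by 55.3% of the 27025 promoters of the table in the same 250 bases. The windows had many CpG pairs, at 21 for Pcdh17, 22 for Pcdh10, 16 for Pcdh19 and 23 for Pcdh18, against a median of 6 over all promoters (quartiles 2 and 16). Pcdh18 had the most CpG pairs of the 4 and more CGCT than Pcdh17 and Pcdh19.

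Most protocadherins were higher in the deleted libraries, and none passed a test in the other direction. In both lines the deleted library had a higher TMM-scaled CPM than its control for 26 of 34 members, against 38.1% of all genes tested. For 21 members both deleted libraries lay above both controls (all genes, 22.9%), and for 1 member both lay below (all genes, 22.8%). The median log2 fold change of the members was 0.58 (line A 0.70, line B 0.33) beside 0.01 over all genes. By kind, it was 0.41 in the 23 tested clustered entries (line A 0.63, line B 0.22) and 0.63 in the 11 tested non-clustered genes (line A 0.90, line B 0.39). Both deleted libraries lay above both controls for 14 of the 23 and for 7 of the 11. The difference between the kinds was not tested, and its direction changed when single libraries were left out. The non-clustered median was 1.21 without control B (clustered 0.50) and 0.74 without deleted A (clustered 0.29). It was 0.38 without control A (clustered 0.40) and 0.44 without deleted B (clustered 0.56). In bulk RNA, fewer cells of a type and less RNA per cell cannot be told apart, and this touches each of these levels.

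With genotype as the single term, edgeR called 0 of the 34 members at an adjusted p of 0.05, as it called 0 of 14860 genes (0.0%), while at an unadjusted p of 0.05 it had 16 members higher and 0 lower (all genes, 6.86% higher and 4.83% lower). The libraries of a line resembled each other and per the labels each line had been divided between the groups, so line, taken from the number that a deleted and a control column share, was also fitted as a block. With the block, 6 members rose and 0 fell, against 3.71% of all genes higher and 1.89% lower. The 6 were Pcdh17, Pcdh11x, Pcdh19 and Pcdh10 among the non-clustered genes, and the Pcdhac1 entry and Pcdhb11 among the clustered ones. DESeq2 called 5 members higher without the block (all genes, 1.77% higher and 0.774% lower) and 8 with it (all genes, 5.2% higher and 2.87% lower), adding Pcdh9 and Pcdhb2 to the 6, and 0 lower in either fit. Each group had 2 libraries, 1 from each line, so the p-values rest on very few samples.

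The non-clustered genes that rose were members of the delta families, as were most of those tested (4 delta1, 5 delta2 and 2 other genes). The 2 others, Pcdh15 and Pcdh20, had few counts and blocked log2 fold changes of 0.80 and 1.21 that did not pass. Pcdh17 is a delta2 protocadherin of axons and synapses that recruits the WAVE actin regulators, and it lies at chr14:84443563-84537060. It had 27.4 and 31.3 CPM in the controls against 95.8 and 68.3 after deletion. Both deleted libraries stood well above both controls, with the larger distance in line A. The log2 fold change was 1.47 (SE 0.17, adjusted p = 0.0266 by edgeR with the block), and it was 1.81 within line A and 1.13 within line B.

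Pcdh11x, a delta1 protocadherin on the X at chrX:120290259-120910619, had 15.6 and 19.9 CPM in the controls against 42.2 and 46.5 after deletion. The groups did not overlap, and the lines moved by like amounts, 1.43 in line A and 1.22 in line B on the log2 scale. The blocked fit gave a log2 fold change of 1.33 (SE 0.10, edgeR adjusted p = 0.0194). Pcdh19, a delta2 gene at chrX:133582863-133688993 that is mutated in an epilepsy of females and whose product works with N-cadherin, had 34.5 and 32.9 CPM in the controls against 56.1 and 47.9 after deletion. Its groups did not overlap either, and its log2 fold change of 0.62 (SE 0.08, edgeR adjusted p = 0.0329 with the block) was smaller than that of Pcdh11x.

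Pcdh10, a delta2 protocadherin that guides axons and also recruits the WAVE regulators, lies at chr3:45378398-45434566. It had 82.4 and 204 CPM in the controls against 114 and 268 after deletion. The 2 groups overlapped, because the level differed more between the lines than between the genotypes. Within a line the deleted library was higher, by 0.47 in line A and 0.39 in line B on the log2 scale, and the blocked fit gave 0.43 (SE 0.07, edgeR adjusted p = 0.0411). Without the block, leaving out control A or deleted B turned the sign of the value, which ranged from -0.34 to 1.21 over the 4 omissions.

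The other delta1 genes were higher after deletion without passing the blocked edgeR test. Pcdh9 had 26.5 and 34.9 CPM in the controls against 49.6 and 48.4 after deletion. These groups did not overlap, and the log2 fold change of 0.69 (SE 0.13) had an adjusted p of 0.0519 by edgeR with the block and 0.00262 by DESeq2 with it. Pcdh1, an epithelial protocadherin that lies outside the clusters at chr18:38185915-38212053, had 20.7 and 28.2 CPM in the controls against 40.7 and 32.6 after deletion (log2 fold change 0.59, SE 0.19, edgeR adjusted p = 0.125). Its difference was mostly that of line A, 0.97 against 0.21 in line B. Pcdh7 had 69.3 and 72.9 CPM in the controls against 81.8 and 91.8 (log2 fold change 0.29, SE 0.07, edgeR adjusted p = 0.0734), the smallest of the delta1 values. For the 4 delta1 genes both deleted libraries lay above both controls (all genes, 22.9%), and their median log2 fold change was 0.63.

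Pcdh18, a delta2 protocadherin whose cytoplasmic part binds Dab1, was the non-clustered gene on the other side of 0. It had 21.8 and 14.4 CPM in the controls against 20.5 and 8.87 after deletion. The lines differed in size, -0.09 in line A and -0.69 in line B on the log2 scale, and the groups overlapped. The log2 fold change of -0.38 (SE 0.18) had an adjusted p of 0.222 by edgeR with the block, so no fall was called. The remaining tested genes were low. Pcdh8, which takes part in the uptake of N-cadherin, had 0.538 and 1.20 CPM in the controls against 1.13 and 1.47 after deletion. Pcdh15, the tip-link protocadherin of inner ear hair cells, had 1.68 and 5.19 against 4.75 and 6.09, and Pcdh20 had 0.337 and 0.469 against 0.537 and 1.41. At 10 to 195 counts per library these 3 genes had SEs of 0.33 to 0.40 in the blocked fit, and their adjusted p-values by edgeR lay between 0.124 and 0.271. Summed over the 12 non-clustered genes, the level was 301 and 445 CPM in the controls against 508 and 621 after deletion, 1.69-fold higher in line A and 1.40-fold in line B.

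**Figure D1:**
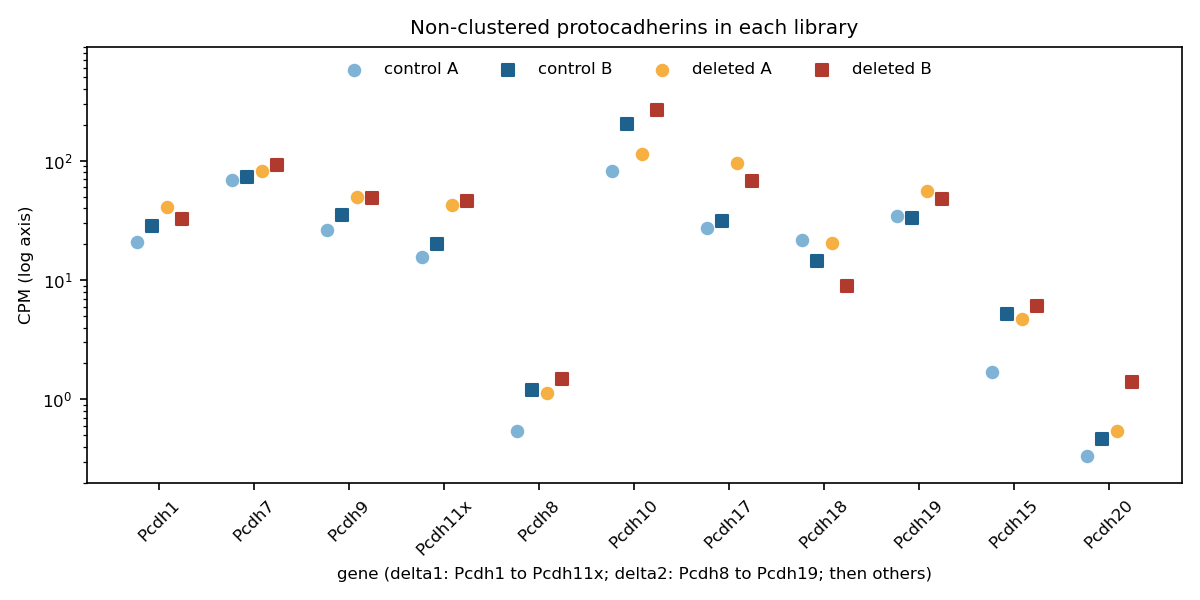
TMM-scaled CPM (log axis) of the 11 tested non-clustered protocadherins in each of the 4 libraries, circles for line A and squares for line B. Pcdh17, Pcdh11x, Pcdh19, Pcdh9, Pcdh1, Pcdh7 and Pcdh20 have both deleted libraries above both controls. Pcdh10 separates by line first (82.4 and 114 CPM in line A, 204 and 268 in line B), and Pcdh18 is lower in the deleted libraries of both lines.

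The table joins most genes of the alpha and gamma clusters into single entries. The entry named Pcdhac1 runs over chr18:36930285-37187657, which holds the starts of all 14 annotated alpha genes, from Pcdha1 to Pcdhac2. The entry named Pcdhga11 runs over chr18:37674335-37841873 and holds 20 of the 22 annotated gamma genes, from Pcdhga3 to Pcdhgc5. Their values are those of a cluster, with its constant and variable exons together, and the choice of isoform cannot be read from them. The beta genes have 1 entry each, from Pcdhb1 to Pcdhb22 over chr18:37264998-37521419. A median of 59.3% of the 50-base words of an alpha gene (range 34.7% to 63.9%) recurred in the transcripts of another protocadherin gene. The median was 44.4% for a gamma gene (26.9% to 65.3%) and 4.27% (at most 12%) for a beta gene. The alpha and gamma shares include the constant exons that the genes of a cluster have in common. They therefore do not measure near-identical sequence alone and are not on the scale of the beta share. How reads with several matches and reads of the antisense strand were counted is not stated in the labels.

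The alpha cluster rose. Its entry had 78.3 and 65.8 CPM in the controls against 121 and 112 after deletion. Both deleted libraries were above both controls, 1.55-fold in line A and 1.71-fold in line B, so the lines moved alike. The log2 fold change was 0.70 (SE 0.07, adjusted p = 0.0227 by edgeR with the block). The gamma cluster, by far the most abundant of the entries, had 1721 and 1278 CPM in the controls against 2216 and 1489 after deletion. Its groups overlapped, since control A exceeded deleted B. It was 1.29-fold higher in line A and 1.16-fold in line B, and the log2 fold change of 0.29 (SE 0.08) did not pass (adjusted p = 0.0999 by edgeR with the block). Without the block, the gamma value ranged from -0.01 to 0.54 when single libraries were left out.

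**Figure D2:**
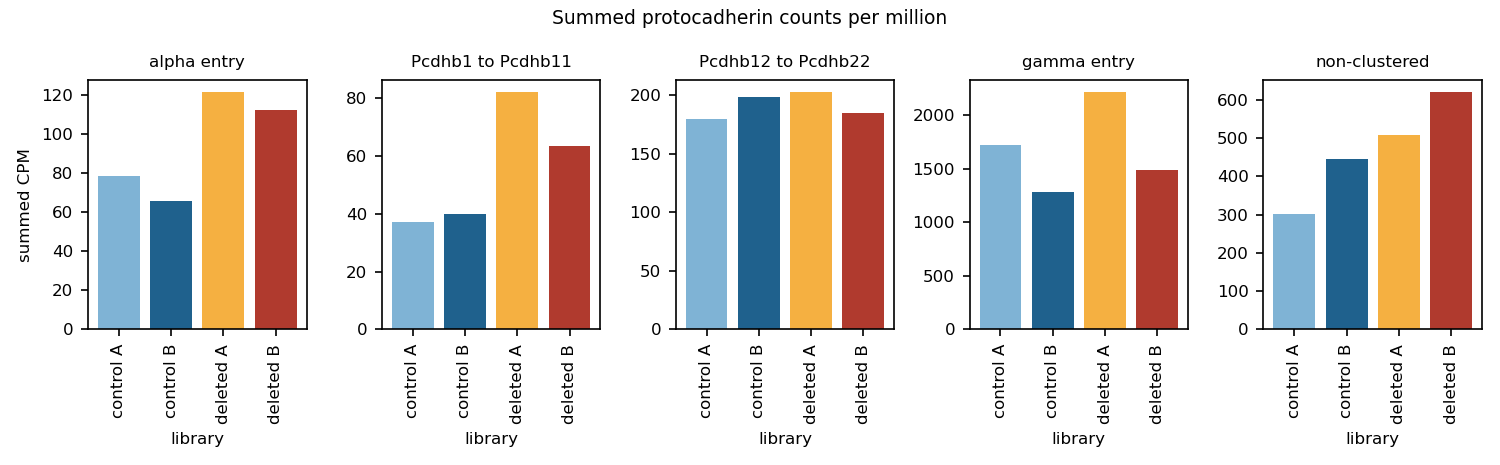
Summed TMM-scaled CPM of the alpha entry, the beta genes, the gamma entry and the non-clustered genes in the 4 libraries, each panel with its own axis from 0. The beta genes are shown as Pcdhb1 to Pcdhb11 and Pcdhb12 to Pcdhb22, a division chosen after the values were seen. The alpha entry is at 78.3 and 65.8 CPM in the controls and 121 and 112 in the deleted libraries, whereas for gamma control A (1721) lies above deleted B (1489).

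The beta genes differed among themselves. Summed, they had 217 and 238 CPM in the controls against 285 and 249 after deletion, 1.31-fold in line A and 1.04-fold in line B. The median log2 fold change of the 21 tested genes was 0.41 (line A 0.70, line B 0.10), with 17 above 0. The largest rise was that of Pcdhb11, which had 6.66 and 5.63 CPM in the controls against 19.1 and 12.3 after deletion. Both deleted libraries had more than both controls, and the log2 fold change was 1.33 (SE 0.16, adjusted p = 0.0286 by edgeR with the block).

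The differences were larger at the upstream end of the beta cluster, the end that faces the alpha genes. The 10 tested genes from Pcdhb2 to Pcdhb11 had a median log2 fold change of 0.93 (line A 1.09, line B 0.68), and in each of the 10 both deleted libraries exceeded both controls (all genes, 22.9%). The 11 genes from Pcdhb12 to Pcdhb22 had a median of 0.09 (line A 0.24, line B -0.09), with 3 of the 11 above both controls and 1 below. This division in the middle of the cluster was chosen after the values were seen, so the counts are a description. The upstream genes summed to 37.1 and 40.0 CPM in the controls and to 82.3 and 63.6 after deletion, 2.22-fold in line A and 1.59-fold in line B. The downstream genes summed to 180.1 and 198 CPM against 203 and 185, 1.13-fold in line A and 0.932-fold in line B. The downstream sums overlapped between the groups, and the upstream sums did not.

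Within the upstream genes the size of the difference varied. Pcdhb2 had 5.62 and 6.45 CPM in the controls against 11.8 and 10.5 after deletion. It came next to Pcdhb11 in mean CPM, although it was above Pcdhb11 in control B. Per kb of exon it was also above Pcdhb11 in the control mean (2.15 against 1.39). The log2 fold change of Pcdhb2, 0.88 (SE 0.17), had an adjusted p of 0.0548 by edgeR with the block. Pcdhb6 had 2.56 and 2.43 against 6.81 and 4.50 (log2 fold change 1.15, SE 0.23, edgeR adjusted p = 0.0563). Pcdhb4 had 3.40 and 3.96 against 7.17 and 7.06 (log2 fold change 0.95, SE 0.18, edgeR adjusted p = 0.0552). In Pcdhb4 both lines differed by about the same amount, in Pcdhb6 line A by more. Pcdhb9 was the most uneven, at 1.85 and 1.99 CPM in the controls against 6.12 and 2.53 after deletion (log2 fold change 1.05, SE 0.38, edgeR adjusted p = 0.147). Pcdhb8, with 0.774 and 1.23 against 2.75 and 2.00, was the lowest of the 10 and had an adjusted p of 0.101. Pcdhb7 had the smallest difference, at 5.01 and 5.37 against 8.60 and 5.66 (log2 fold change 0.43, SE 0.23, edgeR adjusted p = 0.272). Of the 10 genes, Pcdhb11 alone passed the blocked edgeR test, and Pcdhb2 and Pcdhb11 passed DESeq2 with the block.

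Along the chromosome the log2 fold change was lower the further a beta gene lay from the alpha cluster, with Spearman's rho of -0.796 over the 21 genes (-0.8 in line A and -0.77 in line B). Order was not the sole thing that varied along the cluster, because the level did too. The control level per kb of exon correlated with the order at rho 0.648 and with the log2 fold change at -0.725 (line A -0.755, line B -0.555). Position and starting level therefore cannot be told apart in these 21 genes, which share their libraries and depth. The 4 beta genes with the highest mean count were downstream genes. Pcdhb19 had 35.2 and 41.3 CPM in the controls against 33.8 and 36.2, Pcdhb22 had 29.8 and 30.7 against 32.3 and 30.9, and Pcdhb18 had 20.02 and 20.2 against 28.2 and 25.2. Both deleted libraries lay above both controls for Pcdhb18 and Pcdhb22, and edgeR with the block gave adjusted p-values of 0.081 for Pcdhb18 and 0.660 for Pcdhb22. The fourth, Pcdhb17, was the member with both deleted libraries below both controls, at 20.49 and 22.9 CPM in the controls against 20.48 and 15.9 (log2 fold change -0.26, SE 0.16, edgeR adjusted p = 0.317), with next to no distance in line A.

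**Figure D3:**
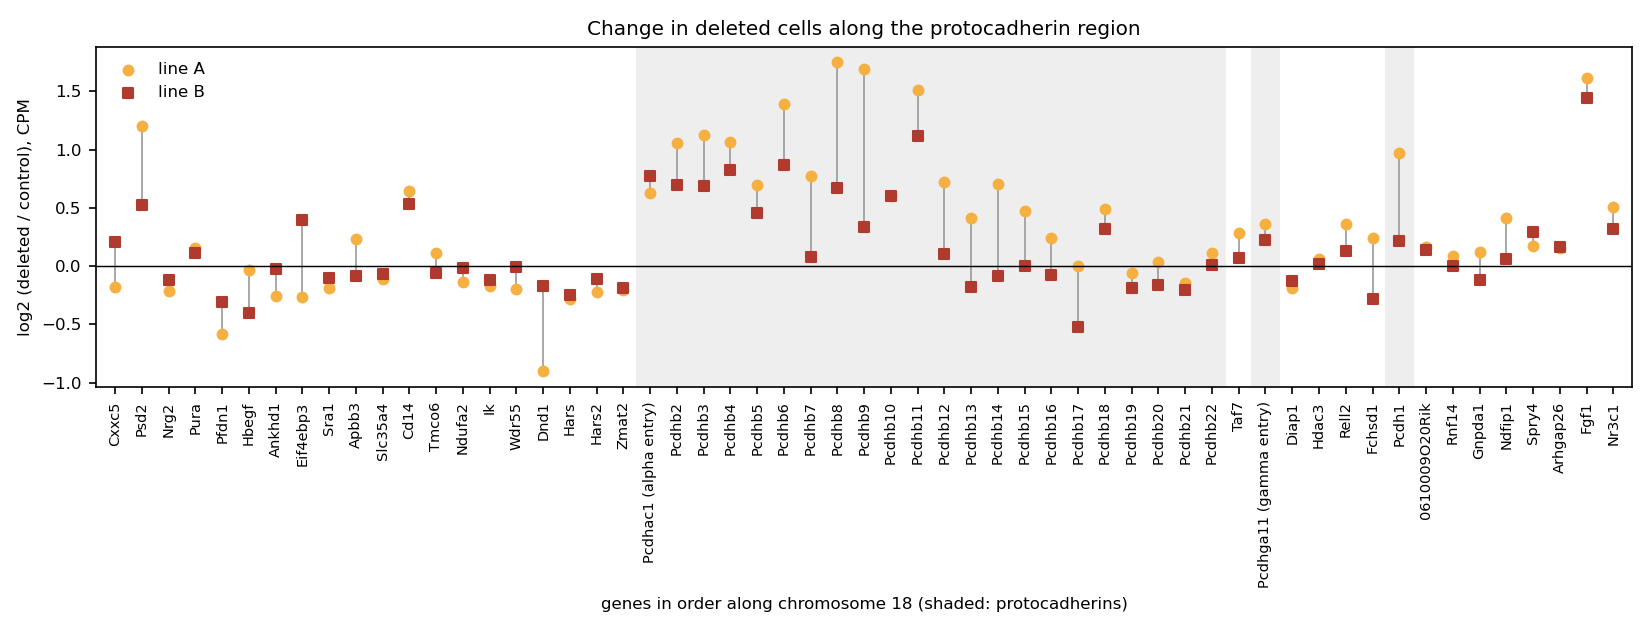
Log2 fold change (deleted over control) of the tested protocadherins of chromosome 18 (shaded) and the 33 tested neighbours of the clusters, in their order on the chromosome and evenly spaced, with circles for line A and squares for line B. Among the beta genes, values are higher upstream (median 1.09 in line A and 0.68 in line B) than downstream (0.24 and -0.09). The neighbour Fgf1 stands at 1.61 in line A and 1.44 in line B.

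Per kb of exon, the mean level of the 34 tested members in the controls ran from 23.0 CPM per kb for the joined gamma entry to 0.0734 for Pcdh20. The joined entries were divided by the exons of many genes, 65071 bases of 20 genes for gamma and 40755 bases of 14 genes for alpha. Their values per kb are therefore not on the scale of single genes. Pcdh10 (9.02) and Pcdh7 (6.70) were the most abundant non-clustered genes, followed by the downstream beta genes Pcdhb20 (5.71) and Pcdhb19 (5.36). Pcdh10 stood at 5.19 and 12.8 in the controls, so its place against Pcdh7 (6.53 and 6.87) differed between the lines. Of the genes that rose, Pcdh17 went from 2.11 and 2.41 CPM per kb in the controls to 7.38 and 5.26, which brought it above Pcdh19 (3.29 and 3.15, then 5.36 and 4.58) in both lines. The lower genes tended to have the higher log2 fold changes, with Spearman's rho between control level per kb and log2 fold change of -0.566 over the 34 tested members and -0.555 over the 11 non-clustered ones. These points share their libraries, and the control values enter both quantities.

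**Figure D4:**
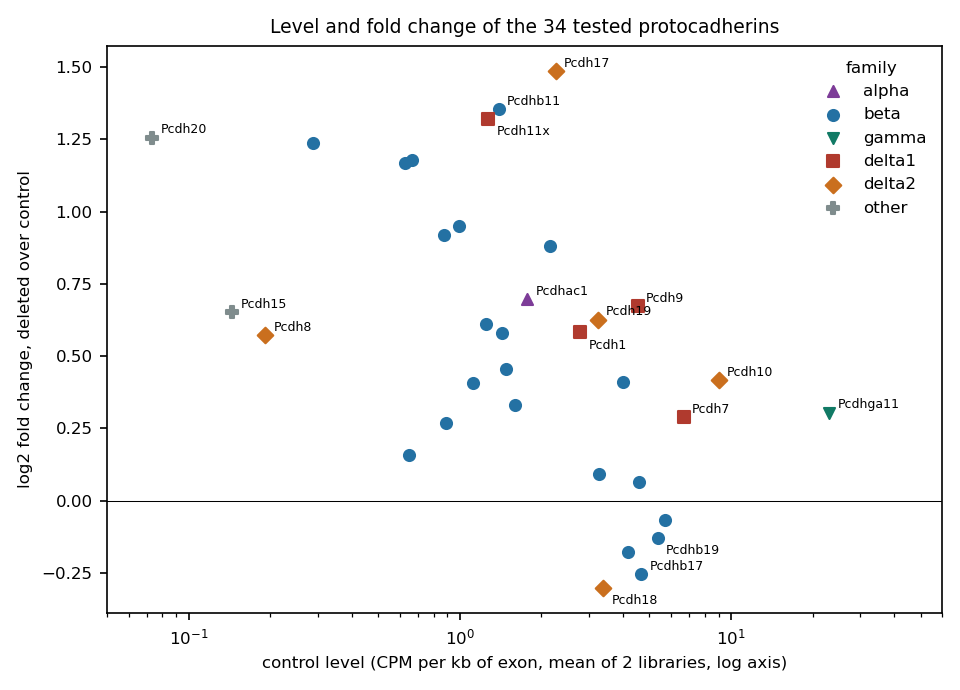
Control level (CPM per kb of exon, log axis) against log2 fold change of deleted over control without the block, 1 point for each of the 34 tested protocadherins, with symbols for the families. Pcdh17 (1.48) and Pcdhb11 (1.35) stand at the top, the gamma entry is far to the right at 23.0 CPM per kb and 0.30, and Pcdh18 is lowest at -0.30.

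Genes known to act on protocadherins or with them, and neighbours of the clusters, had too few calls to set any list apart from all genes, of which edgeR with the block called 3.71% higher and 1.89% lower. The list of 24 tested promoter and chromatin regulators had 0 called in either direction by edgeR with the block and a median log2 fold change of -0.08. Ctcf, the factor that joins clustered promoters to their enhancers, was at 0.00 (SE 0.07, edgeR adjusted p = 0.994) and the cohesin subunit Rad21 at 0.19 (SE 0.07, edgeR adjusted p = 0.151), while Dnmt3l had 0 counts. Of 27 intracellular partners and proteases 1 fell, Cdh2 (N-cadherin, which binds Pcdh19), by 0.51 on the log2 scale (SE 0.06, adjusted p = 0.0309 by edgeR with the block), and 0 rose. Of 9 tested large cadherins 0 were called, with a median of 0.10 and 5 of 9 above 0. Fat1 and Dchs1, the most abundant, were at -0.13 and -0.28, and Fat4 and Celsr2, named after their values were seen, at 0.38 and 0.35 (edgeR adjusted p = 0.0536 and 0.0683 with the block). Among 33 tested neighbours of the clusters on chromosome 18, 1 rose, Fgf1 (log2 fold change 1.53, SE 0.08, edgeR adjusted p = 0.0194 with the block), and 0 fell, with a median of 0.02. Taf7, a gene between the beta and gamma clusters, was at 0.18 (SE 0.14, edgeR adjusted p = 0.449 with the block).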

How the data were processed

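Raw counts per gene were deposited by the authors as whole numbers for 4 libraries. The 4 columns of all reads were used, and 8 further columns, of reads split by parental genome, were not used here. The planned tests on 129 and Cast reads were therefore not made. The column names give a group but cannot be matched to single samples, and this holds for the 4 columns used as well. TopHat2 2.0.12, bcl2fastq and edgeR are named in the submitters' processing notes, with mm10 as the build. The counter and its strand setting are not stated there. Of the design's lines, 2 were analysed here. Groups came from the labels. Each deleted column shares a number with 1 control column, read as the line, and this number is in the column names and not in the labels. Libraries with the same number deviated together (r = 0.716 over 14860 genes) and the labels say that each line was divided, which is where the pairing comes from.

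Tests used edgeR 4.0.16 in R 4.3.3 (TMM, filterByExpr, quasi-likelihood, Benjamini-Hochberg over all tested genes, threshold 0.05), with genotype alone and with line as a block; DESeq2 1.42.0 was an alternative. The SE is the log2 fold change divided by the square root of F. Log2 fold changes within a line used TMM-scaled CPM with a prior count of 2. Levels per kb used GENCODE M21 exon lengths (GRCm38). Scripts were tested on simulated data. Named genes were the members called by a fit with the filter, all tested non-clustered members and the alpha and gamma entries. The 4 beta genes with the highest mean count were named too, as were some called, abundant or uncounted genes of the other lists. Ctcf and Taf7 were neither called nor the most abundant of their lists. Further upstream beta genes were described with their values known, whether called or not. Members and lists were chosen with earlier results of these data known. A result on 1 listed gene is not reported here.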

Additional observations from a re-analysis of the deposited data

Results flagged for a closer look

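In 4 beta genes the lines differed in sign, higher in the deleted library of line A and lower in that of line B. The log2 fold change of line A minus that of line B was 0.59 for Pcdhb13, 0.80 for Pcdhb14, 0.32 for Pcdhb16 and 0.19 for Pcdhb20. All 4 belong to the downstream genes of the cluster. With 1 library per line and genotype, the difference was not tested.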

How the results depend on the processing

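The directions of the clustered and non-clustered medians were kept under every alternative, and the number of calls differed with the pairing and with the tool. The counts below are given in the order edgeR with the replicate block, DESeq2, DESeq2 with the block, the block with RLE size factors, the block with no scaling factors and the block with no filter, against 0 by edgeR without the block. Members higher on total counts were 6, 5, 8, 7, 7 and 11, genes higher were 551, 263, 772, 604, 585 and 1131, and genes lower were 281, 115, 427, 304, 289 and 671. The block combined with other scalings or no filter was chosen after seeing the data. The cause of these differences was not tested.

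Leaving out 1 library at a time without the block gave 0 calls throughout, a clustered median of 0.29 to 0.56 and a non-clustered median of 0.38 to 1.21, the last without control B. The sign turned in at least 1 omission for Pcdh10 (-0.34 to 1.21), Pcdh18 (-1.03 to 0.16), Pcdhb13 (-0.20 to 0.42), Pcdhb15 (-0.055 to 0.51), Pcdhb16 (-0.089 to 0.24), Pcdhb20 (-0.17 to 0.034) and the Pcdhga11 entry (-0.012 to 0.54). A lone library is there assumed to vary like the other group. The alternatives planned for 129 and Cast reads were not run. With 2 libraries per group, and with 10 to 195 counts in Pcdh8, Pcdh15 and Pcdh20, depth limits what could be seen in these genes.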
